A study of Mus musculus with 8 samples.

Results

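The genes described here are the mouse amino acid transporters of 7 solute carrier families and the enzymes of serine and asparagine synthesis, measured in descendants of hypertrophic chondrocytes that carried deleted, normal or stabilised beta-catenin. Members were taken by gene name, under a rule set with earlier results of these data known. Genes in the deposited table qualified when their symbol was Slc1a, Slc3a, Slc6a, Slc7a, Slc36a, Slc38a or Slc43a followed only by digits. Symbols with a further letter after the digits were not taken. Asns, Psat1, Phgdh, Psph and Shmt2 were added. This gave 65 members of 48490 genes, of which 60 are transporter genes and 5 are enzyme genes. RNA came from the proximal tibia at postnatal day 5, where Smart-seq2, a full-length method for very small inputs, was run on pools of 70 tdTomato-positive cells picked by hand under the microscope. All 8 libraries carry Col10a1Cre, a recombinase driven by the collagen X promoter of hypertrophic chondrocytes, and the Rosa26-Tdtomato reporter that marks these cells and their progeny. The LoF group (n = 4) is also Ctnnb1Δ/Δ, the GoF group (n = 2) is also Ctnnb1-exon3 Δ/+, with 1 allele that lacks the part of beta-catenin through which it is marked for breakdown, and the WT group (n = 2) has no changed Ctnnb1 allele listed. The labels do not say whether libraries of a group came from separate animals, so the p-values measure the spread between these pools.

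Cells that secrete a collagen-rich matrix need large amounts of glycine, proline, alanine and serine, which they take up or make. Many transporters of the Slc7 family are light chains that reach the cell surface only when bound to a heavy chain, chiefly the product of Slc3a2; the exchangers among them trade one amino acid for another. Proton- or sodium-coupled carriers of the Slc36, Slc38, Slc6 and Slc1 families load the cell, and serine is made from a glycolytic intermediate by Phgdh, Psat1 and Psph in turn before Shmt2 converts it to glycine in the mitochondrion. Transcription factor ATF4 is known to raise many of these genes when amino acids are short, and in osteoblasts both ATF4 and Wnt signalling are known to support amino acid uptake.

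Values are FPKM, a count of sequenced fragments divided by the length of the transcript and the size of the library, as the authors deposited them, so levels of different genes are compared per length. The libraries had 12587 to 13944 genes above 0 FPKM, and their relative depth, read from the steps between low values, spanned 1.29-fold. Ctnnb1 itself was at 67.3 to 81.1 FPKM in LoF, 137 and 146 in WT, and 72.0 and 86.7 in GoF, and neither mutant passed the test against WT. Axin2, a target of beta-catenin, was listed at 0 in the 4 LoF libraries and stood at 5.26 and 2.80 FPKM in GoF. Y-linked transcripts were found in both GoF libraries and in LoF libraries 2 and 3, and Xist in both WT libraries and in LoF libraries 1 and 4, so genotype and sex cannot be told apart between GoF and WT. The summed FPKM of 13 osteoblast matrix genes was 11321 to 14958 in LoF, 24360 and 25831 in WT, and 32961 and 34572 in GoF. Spp1, most of that sum in LoF, ran opposite to it, with means of 9836, 3843 and 1570 FPKM in LoF, WT and GoF. The summed FPKM of 9 adipocyte and marrow stroma markers ran the other way, at 1046 to 2572 in LoF, 105 and 421 in WT, and 44 and 61.8 in GoF, where Adipoq and Cebpa were at 0. Erythroid markers summed to 76 to 2274, 2558 and 10574, and 895 and 1838 FPKM in the same order of groups. Myeloid and osteoclast markers summed to 69.5 to 167, 120 and 320, and 103 and 111 FPKM, with Acp5 called higher in GoF than in LoF, and endothelial markers to 0.564 to 62.6, 0.249 and 0.334, and 0.541 and 1.76. The hypertrophic chondrocyte list, which Mmp13 dominates in LoF and WT, summed to 3244 to 4943, 1699 and 2253, and 488 and 632 FPKM. Without Mmp13 its genes ran otherwise: Col10a1 had means of 63.1, 13.4 and 183 FPKM and Panx3 of 24.6, 102 and 298 in LoF, WT and GoF, and Ihh was at 0 in LoF and WT. In bulk pools fewer cells of a type and less RNA per cell cannot be told apart, and the part of these markers in the results that follow was not tested.

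Of the 65 members, 16 were listed at 0 in every library and 10 more did not reach 1 FPKM in at least 2 libraries. The remaining 39, of which 34 are transporters, entered the test. Among these 39, 29 reached 1 FPKM in all 3 groups. Slc6a11, Slc6a12 and Slc38a3 reached it in GoF alone, so the filter admitted them through the group in which they were high. Slc6a15 reached it in WT alone and was admitted in the same way. The 10 that failed the filter included Slc7a11, the cystine carrier, which was at 0 in LoF, 0.128 and 0.0643 in WT, and 0.300 and 0.643 in GoF. Slc7a10, a neutral amino acid carrier known from white adipocytes, was at 0.349 and 0.326 FPKM in LoF libraries 3 and 4 and at 0 in the other 6 libraries.

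Summed over all members, transporter and enzyme mRNA was lowest in LoF and highest in GoF. The sums were 212, 255, 311 and 365 FPKM in LoF libraries 1 to 4, 399 and 435 in WT, and 604 and 579 in GoF. The groups did not overlap in this sum, which a few abundant members dominate. By mean level, Slc3a2 (52.5 FPKM), Phgdh (35.7 FPKM) and Slc6a6 (20.1 FPKM) led in LoF. In WT the leading members were Slc3a2 (52.7 FPKM), Psat1 (52.4 FPKM) and Slc36a2 (46.8 FPKM). In GoF they were Slc3a2 (85.1 FPKM), Slc36a2 (81.0 FPKM) and Slc7a7 (74.6 FPKM). Slc3a2 thus headed the list in every genotype, while Phgdh stood next in LoF, Psat1 in WT and Slc36a2 in GoF.

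**Figure D1:**
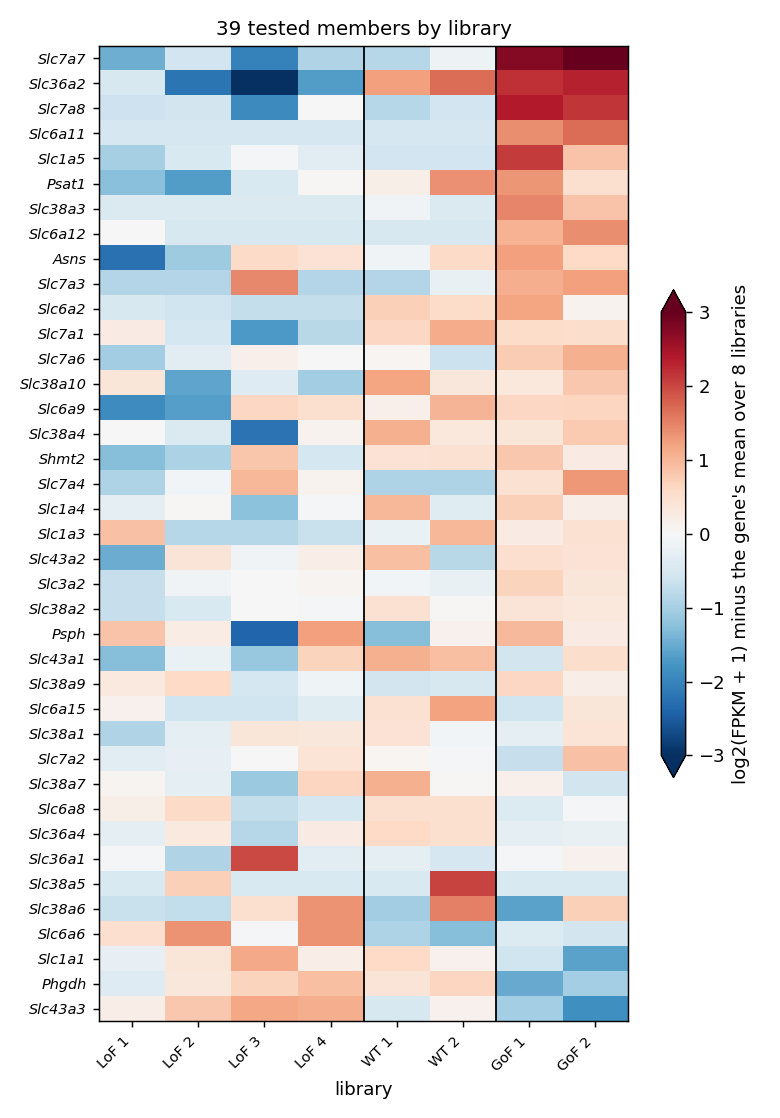
Level of the 39 tested members in each of the 8 libraries, as log2(FPKM + 1) minus the gene's mean over the libraries, with red above and blue below that mean and genes ordered by the GoF to LoF difference. Slc7a7, Slc36a2 and Slc7a8 at the top are red in both GoF libraries, and Slc43a3 and Phgdh at the bottom are blue there.

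GoF was first set against LoF, which asks how stabilised and deleted beta-catenin differ in the same lineage. Tests used limma on log2(FPKM + 1) with Benjamini-Hochberg adjustment over all 12888 genes tested, and a gene was called when its adjusted p was under 0.05. In GoF, 7 of the 39 members rose: Slc7a7, Slc36a2, Slc7a8, Slc6a11, Slc1a5, Slc38a3 and Slc6a12. This is 17.9% of the members tested, against 5.97% of all genes, but 3 of the 7 (Slc6a11, Slc38a3 and Slc6a12) entered the test through GoF alone and had to be high there, so the share is given as a description. Phgdh and Slc43a3 fell, which is 5.13% of members against 5.68% of all genes, and 30 members did not pass the test. The median log2 difference was 0.74 over the members and -0.17 over all genes tested. At an unadjusted p under 0.05, 12 members were higher and 4 lower, together 41% of those tested against 25.2% of all genes. In 17 members (43.6%) both GoF libraries lay above every LoF library, as in 14.8% of all genes, and in 4 (10.3%) both lay below, as in 18.7%. Slc6a11, Slc38a3 and Slc6a12 are among these 17 and among the 12 higher at an unadjusted p under 0.05. These shares, too, are therefore given as a description. With LoF libraries 2 and 3 alone, which like GoF hold Y-linked transcripts, 7 members were called, and with sex as a covariate 6 were. Fewer members were called when either GoF library was left out, and Slc6a11, Slc38a3 and Slc6a12 then fell below the filter and were not tested.

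**Figure D2:**
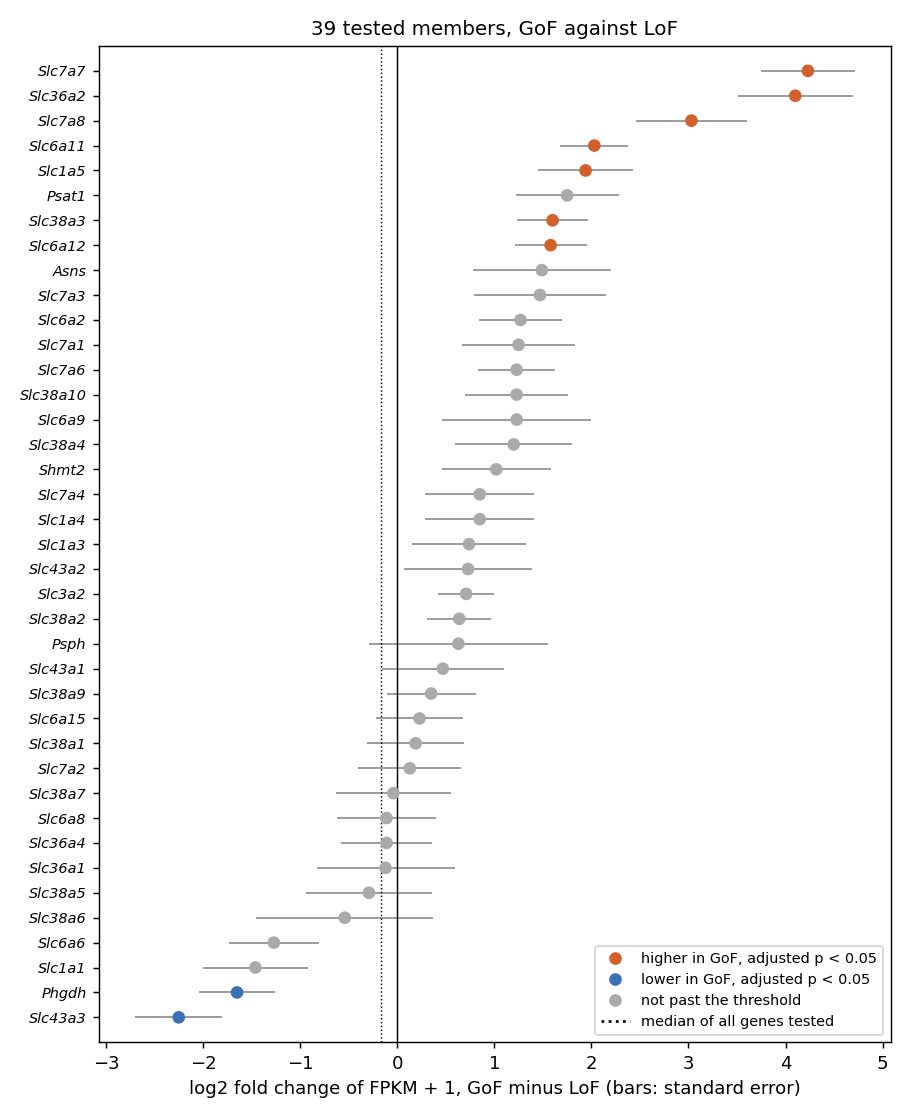
Log2 fold change of FPKM + 1, GoF minus LoF, for the 39 tested members, with the standard error as a bar and the median of all genes tested (-0.17) as a dotted line. The 7 genes called higher in GoF are orange, the 2 called lower are blue, and the largest differences on this scale are those of Slc7a7 (4.23) and Slc36a2 (4.10).

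The heavy chain and its exchangers held the most abundant member, Slc3a2, and Slc7a7, whose GoF to LoF difference on the log2(FPKM + 1) scale was the largest among members. Slc7a7 (ENSMUSG00000000958.9, mm10 chr14:54369442-54417780) encodes y+LAT1, which releases cationic amino acids such as arginine and lysine in exchange for neutral ones and sodium. Its FPKM was 2.41, 5.28, 1.32 and 3.99 in LoF, 4.20 and 7.42 in WT, and 62.4 and 86.8 in GoF. Both GoF libraries stood far above the other 6, with no overlap, while LoF and WT overlapped. The GoF mean of 74.6 ± 17.2 FPKM (SD, n = 2) was 22.9-fold above the LoF mean of 3.25 ± 1.74 (SD, n = 4), or 4.23 ± 0.48 (SE) on the log2(FPKM + 1) scale, which passed at an adjusted p of 0.000495 by limma. Slc7a7 passed under all 18 alternative settings, with adjusted p between 0.000379 and 0.015. It shares exon bases with Oxa1l on the opposite strand, and the counting is not stated to use strand. Oxa1l was at 5.67 and 9.11 FPKM in GoF and 4.37 to 17.2 in LoF.

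Slc7a8 (ENSMUSG00000022180.6, mm10 chr14:54722216-54781886) encodes LAT2, an exchanger of neutral amino acids, and lies 304428 bases from Slc7a7. Its FPKM was 1.43, 1.58, 0 and 2.78 in LoF, 1.07 and 1.53 in WT, and 18.6 and 15.5 in GoF. The GoF libraries again lay above all others, and LoF and WT overlapped. GoF exceeded LoF 11.8-fold, with a log2 fold change of 3.03 ± 0.57 (SE) and an adjusted p of 0.0074 by limma. The adjusted p was 0.0838 without GoF library 1 and 0.0544 without GoF library 2, and 0.0653 with a pseudocount of 0.1.

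The heavy chain and the closest relative of Slc7a7 differed less. Slc3a2 (ENSMUSG00000010095.13, mm10 chr19:8706882-8723369) was at 36, 54.3, 58.0 and 61.8 FPKM in LoF, 55.3 and 50.2 in WT, and 94.3 and 75.9 in GoF. Its GoF libraries lay above the other 6, with a log2 fold change against LoF of 0.71 ± 0.29 (SE) that did not pass (adjusted p = 0.163, limma; 0.0408 with median ratio scaling). Slc7a6, which encodes y+LAT2 (ENSMUSG00000031904.5, mm10 chr8:106168857-106198706), was at 9.96, 17.0, 24.4 and 21.6 FPKM in LoF, 22.5 and 13.5 in WT, and 37.4 and 46.9 in GoF. It did not overlap either, and its log2 fold change of 1.23 ± 0.40 (SE) had an adjusted p of 0.0821 by limma, which was 0.0217 under median ratio scaling and 0.0439 under quantile normalization.

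The balance between the y+LAT pair differed between the groups. Slc7a7 was at 0.242, 0.311, 0.054 and 0.185 times the FPKM of Slc7a6 in LoF, at 0.187 and 0.551 times in WT, and at 1.67 and 1.85 times in GoF. Slc7a6 was thus the more abundant y+LAT transcript in all 6 LoF and WT libraries and Slc7a7 in both GoF libraries. Relative to the shared heavy chain, Slc7a7 stood at 0.0227 to 0.0973 of Slc3a2 in LoF, 0.076 and 0.148 in WT, and 0.662 and 1.14 in GoF. These ratios were computed after the values were seen and carry no test.

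The promoter windows of 3 members are shown because ATF4 is known to act through a composite C/EBP-ATF element, whose core was searched here as TGATGNAA on both strands. Windows of 300 bases, 250 before and 50 after the start site, came from RefSeq on GRCm38.p6, and 48 of the 65 members had one. Capitals mark the matches. Asns, a much studied carrier of this element, is set beside Slc7a7 and its neighbour Slc7a8, all on the minus strand, at chr6:7693160-7693459, chr14:54417895-54418194 and chr14:54781837-54782136.
Asns: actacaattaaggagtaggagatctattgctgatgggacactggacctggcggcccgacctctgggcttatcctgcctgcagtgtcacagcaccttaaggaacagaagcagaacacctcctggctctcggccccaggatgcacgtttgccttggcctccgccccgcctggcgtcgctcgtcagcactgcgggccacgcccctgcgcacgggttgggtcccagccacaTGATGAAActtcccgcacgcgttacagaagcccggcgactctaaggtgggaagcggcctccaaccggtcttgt
Slc7a7: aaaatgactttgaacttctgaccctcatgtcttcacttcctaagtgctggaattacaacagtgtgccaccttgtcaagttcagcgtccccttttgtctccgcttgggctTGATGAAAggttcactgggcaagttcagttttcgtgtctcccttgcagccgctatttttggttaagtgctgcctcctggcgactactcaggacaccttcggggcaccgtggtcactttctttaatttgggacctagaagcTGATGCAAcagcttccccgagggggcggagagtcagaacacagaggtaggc
Slc7a8: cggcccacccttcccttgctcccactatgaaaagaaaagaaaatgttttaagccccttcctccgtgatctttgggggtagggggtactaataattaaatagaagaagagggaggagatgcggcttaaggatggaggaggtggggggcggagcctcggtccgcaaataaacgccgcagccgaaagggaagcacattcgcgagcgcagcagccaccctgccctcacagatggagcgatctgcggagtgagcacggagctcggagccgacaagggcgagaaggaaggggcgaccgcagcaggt
RefSeq gives Slc7a7 5 windows, and the most upstream is printed because it holds the most matches: 2, the first at position -141 from its start site. The second match spans that start site. This window lies wholly outside the deposited bounds of Slc7a7, which end at 54417780. Of the other Slc7a7 windows 2 overlap the printed one. The single match in 1 of these, at position -243 there, is the second match of the printed window. The other 3 windows hold none. The Asns window holds 1 match at position -23, and the Slc7a8 window holds none. The pattern occurs in 3.97% of the 32851 windows of the table, and in windows of 5 members: Asns, Slc1a4, Slc6a21, Slc7a11 and Slc7a7. The TCF/LEF patterns CTTTGATN and CTTTGTTN occur in 3.71% and 5.83% of all windows and in none of the 3 shown. They occur in 5 and 6 of the 70 member windows, and TGATGNAA in 6. The members are Slc1a2, Slc38a10, Slc38a9, Slc6a16 and Slc7a1 for CTTTGATN. For CTTTGTTN they are Slc3a1, Slc6a4, Slc6a9, Slc7a11 and Slc7a9. A match is a string of letters and was not tested as a bound site. Of the 5 members that hold TGATGNAA Slc7a7 alone was called, and Slc6a21 and Slc7a11 did not enter the test.

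Among the proton-coupled carriers, Slc36a2 rose in GoF over LoF, and its WT level lay between the mutants. Slc36a2 (ENSMUSG00000020264.5, mm10 chr11:55158470-55185077) encodes PAT2, which brings glycine, alanine and proline into the cell with protons. Its FPKM was 11.3, 2.79, 1.09 and 4.40 in LoF, 39.4 and 54.1 in WT, and 77.6 and 84.5 in GoF. No library of one group reached the range of another. GoF exceeded LoF 16.6-fold, with a log2 fold change of 4.10 ± 0.59 (SE) and an adjusted p of 0.00203 by limma, and the call held under all 18 alternatives. PAT2 is also known as a surface protein of brown adipocytes; the part of the adipocyte and marrow stroma markers in its levels was not tested. Its relative Slc36a4 was at 1.92 to 5.53 FPKM in LoF, 6.94 and 6.41 in WT, and 3.36 and 3.51 in GoF, so that Slc36a2 was at 23.1 and 24.1 times its level in GoF and at 3.34, 0.505, 0.571 and 0.828 times in LoF, below it in libraries 2, 3 and 4. Slc36a1, the lysosomal and plasma membrane PAT1, lay between 0.0989 and 1.27 FPKM except in LoF library 3 (7.20).

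Slc1a5 (ENSMUSG00000001918.17, mm10 chr7:16781340-16798274), the sodium-dependent glutamine carrier ASCT2, was at 1.94, 3.29, 4.72 and 3.75 FPKM in LoF, 2.95 and 2.95 in WT, and 24.3 and 9.73 in GoF. Both GoF libraries lay above the rest but differed from each other more than any of the other 6 did. GoF exceeded LoF 4.96-fold, with a log2 fold change of 1.94 ± 0.49 (SE) and an adjusted p of 0.0303 by limma. This call was lost in 10 of 18 alternatives: the adjusted p was 0.396 without GoF library 1, 0.0513 without GoF library 2, 0.054 without LoF library 1 and 0.0571 without LoF library 2. Its relative Slc1a4, a carrier of serine and alanine, was at 0.897, 1.37, 0 and 1.22 FPKM in LoF, 3.67 and 0.798 in WT, and 2.83 and 1.68 in GoF, and its difference of 0.85 ± 0.56 (SE, log2) was not past the threshold (adjusted p = 0.392, limma). Slc1a1, a glutamate and cysteine carrier, was at 2.44 to 7.98 FPKM in LoF, 5.14 and 3.43 in WT, and 1.71 and 0.340 in GoF.

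A pair of GABA and betaine carriers on chromosome 6 was detected mainly in GoF, at low levels. Slc6a11 (ENSMUSG00000030307.8, mm10 chr6:114131241-114249952), a GABA transporter, was listed at 0 in all 6 LoF and WT libraries and at 2.72 and 3.51 FPKM in GoF. Its GoF to LoF adjusted p was 0.00507 by limma and stayed at or under 0.0455 in the 16 alternatives that tested it. Slc6a12 (ENSMUSG00000030109.15, mm10 chr6:121343076-121365775), which carries betaine and GABA, was at 0.384 FPKM in LoF library 1, at 0 in the other LoF libraries and in WT, and at 1.88 and 2.66 in GoF. Its log2 fold change was 1.58 ± 0.37 (SE) with an adjusted p of 0.0212 by limma, which became 0.0501 without LoF library 2. The noradrenaline transporter Slc6a2 stood at 0.188, 0.0834, 0 and 0 FPKM in LoF, 1.70 and 1.40 in WT, and 2.77 and 0.763 in GoF, a difference of 1.27 ± 0.43 (SE, log2) that was not past the threshold (adjusted p = 0.0876, limma).

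The glycine and taurine carriers of the Slc6 family showed other patterns. Slc6a9, the glycine transporter GlyT1, was at 0, 0.172, 4.69 and 4.13 FPKM in LoF, 3.10 and 6.49 in WT, and 4.63 and 4.72 in GoF. LoF libraries 1 and 2 were near 0 and libraries 3 and 4 within the range of the other groups, and the log2 fold change of 1.23 ± 0.77 (SE) did not pass (adjusted p = 0.37, limma). Slc6a6 (ENSMUSG00000030096.8, mm10 chr6:91684053-91759066), the taurine transporter, was at 14.9, 27.6, 10.1 and 27.7 FPKM in LoF, 4.93 and 3.62 in WT, and 7.52 and 6.62 in GoF. LoF was highest, without overlap with either other group. GoF minus LoF was -1.27 ± 0.46 (SE) on the log2 scale with an adjusted p of 0.114 by limma, and 0.0413 without LoF library 3.

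Of the sodium-coupled glutamine and alanine carriers, Slc38a3 (ENSMUSG00000010064.15, mm10 chr9:107650634-107669530), known as SNAT3, was called. It was listed at 0 in LoF, at 0.263 and 0 FPKM in WT and at 2.77 and 1.45 in GoF (adjusted p = 0.0201, limma, for GoF against LoF), and the adjusted p was 0.0532 with sex as a covariate and 0.0698 with LoF libraries 2 and 3 alone. The more abundant Slc38a2, or SNAT2, was at 14.1, 16.8, 23.5 and 22.6 FPKM in LoF, 32.4 and 23.8 in WT, and 31.0 and 29.1 in GoF, and its log2 fold change of 0.64 ± 0.33 (SE) did not pass (adjusted p = 0.257, limma). LoF was below both other groups in this gene, and the gap to the lowest WT library was small. Slc38a1 ranged from 0 to 1.52 FPKM over the 8 libraries (adjusted p = 0.85, limma). Slc38a4, whose product also carries cationic amino acids, was at 3.74 to 22.6 FPKM in LoF, 45 and 26.4 in WT, and 27.0 and 36.6 in GoF. Slc38a10 was at 3.90 to 17.8, 32.4 and 17.7, and 17.3 and 24.7 FPKM in the same order, and Slc38a6 ranged from 0.232 to 9.74 with overlapping groups.

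Arginine importers did not pass the test. Slc7a1, the main cationic carrier CAT1, was at 2.97, 1.31, 0 and 0.878 FPKM in LoF, 4.11 and 6.23 in WT, and 3.85 and 3.82 in GoF, which gave 1.25 ± 0.58 (SE, log2) for GoF against LoF (adjusted p = 0.211, limma). Every LoF library lay below the WT and GoF libraries. Slc7a2 was at 2.49 to 4.88 FPKM in LoF, 3.58 and 3.19 in WT, and 1.70 and 7.02 in GoF. Slc7a3 was at 3.99 in LoF library 3, at 0 in the other LoF libraries, at 0 and 0.585 in WT, and at 2.96 and 3.35 in GoF.

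In the Slc43 family, Slc43a3 fell in GoF. Slc43a3 (ENSMUSG00000027074.14, mm10 chr2:84936579-84958509) is placed with amino acid carriers by sequence but is known as a purine nucleobase transporter. Its FPKM was 9.42, 14.9, 19.4 and 18.3 in LoF, 5.48 and 8.94 in WT, and 3.48 and 1.53 in GoF. The 3 groups did not overlap, with LoF highest. The GoF mean was 6.20-fold lower than the LoF mean, a log2 fold change of -2.25 ± 0.45 (SE) with an adjusted p of 0.00996 by limma, and 0.113 without GoF library 2. Of the 9 adipocyte and marrow stroma markers, 7 were called lower in GoF than in LoF, Adipoq and Lepr did not pass, and Lepr was higher in both GoF libraries than in any LoF library. Slc43a1, a carrier of branched-chain amino acids, was at 0.486 to 4.71 FPKM in LoF, 6.48 and 5.71 in WT, and 1.45 and 4.14 in GoF.

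**Figure D3:**
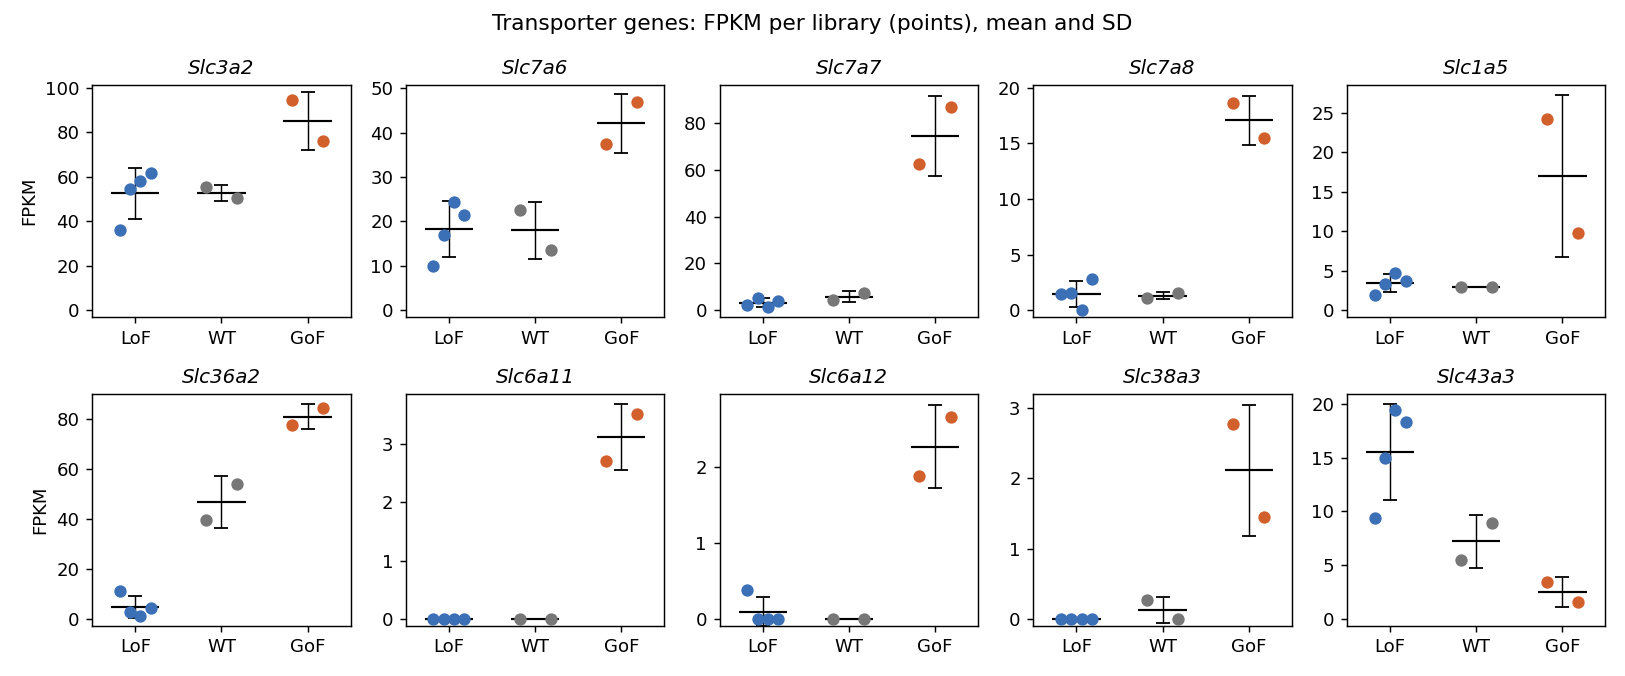
FPKM of 10 transporter genes in each library (points), with the group mean as a line and the SD as a bar, for LoF (n = 4), WT (n = 2) and GoF (n = 2); each panel has its own linear axis from 0. Slc7a7 reached 62.4 and 86.8 FPKM in GoF against at most 7.42 elsewhere, whereas Slc3a2 ranged from 36 to 94.3 over all libraries.

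The enzymes of serine synthesis did not move together. Phgdh (ENSMUSG00000053398.11, mm10 chr3:98313170-98339990), which catalyses the first and committed step, was at 19.6, 32.8, 41.6 and 48.9 FPKM in LoF, 34.2 and 40.6 in WT, and 8.39 and 12.2 in GoF. Both GoF libraries lay below the other 6, and LoF and WT overlapped. The GoF mean of 10.3 ± 2.68 FPKM (SD, n = 2) was 3.47-fold below the LoF mean of 35.7 ± 12.6 (SD, n = 4), with a log2 fold change of -1.65 ± 0.39 (SE) and an adjusted p of 0.023 by limma. That p was 0.224 without GoF library 1, 0.0739 without GoF library 2, 0.0581 with sex as a covariate and 0.112 with LoF libraries 1 and 4 alone.

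Psat1 (ENSMUSG00000024640.9, mm10 chr19:15904678-15947337), the aminotransferase of the next step, was at 11.2, 7.99, 20.2 and 28.6 FPKM in LoF, 31.4 and 73.4 in WT, and 71.8 and 39.5 in GoF. LoF was lowest without overlap, and WT and GoF overlapped. Its log2 fold change of 1.75 ± 0.53 (SE) for GoF against LoF missed the threshold (adjusted p = 0.0618, limma) and passed it with median ratio scaling (0.0307), with quantile normalization (0.0488) and without LoF library 4 (0.0363). In the same libraries the FPKM of Psat1 was 0.57, 0.244, 0.485 and 0.584 times that of Phgdh in LoF, 0.919 and 1.81 times in WT, and 8.56 and 3.24 times in GoF. The order of this ratio was chosen for description after the values were seen and has no test.

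The last 2 enzymes and asparagine synthetase did not pass. Psph, the phosphatase that releases serine, was at 8.47, 5.10, 0 and 11.3 FPKM in LoF, 1.15 and 4.70 in WT, and 9.34 and 5.21 in GoF, a log2 difference of 0.63 ± 0.92 (SE; adjusted p = 0.717 by limma). Shmt2 (ENSMUSG00000025403.4, mm10 chr10:127517123-127522444) was at 3.44, 4.63, 18.3 and 6.47 FPKM in LoF, 13.6 and 13.8 in WT, and 18.1 and 11.9 in GoF, which gave 1.02 ± 0.56 (SE) on the log2 scale (adjusted p = 0.297, limma). LoF library 3 stood with the WT and GoF libraries, and without it the adjusted p was 0.0478. Shmt2 shares exon bases with Ndufa4l2 on the opposite strand, which rose in GoF (9.82 and 4.51 FPKM; 0 to 1.46 in LoF; adjusted p = 0.016, limma), and Psph shares them with Cct6a. Asns (ENSMUSG00000029752.12, mm10 chr6:7675169-7693254) was at 3.42, 8.95, 30.1 and 27.4 FPKM in LoF, 18.5 and 30.3 in WT, and 48.3 and 30.7 in GoF. Its LoF libraries split into a low and a high pair, the groups LoF and WT overlapped, and the log2 fold change of 1.49 ± 0.71 (SE) did not pass (adjusted p = 0.229, limma).

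**Figure D4:**
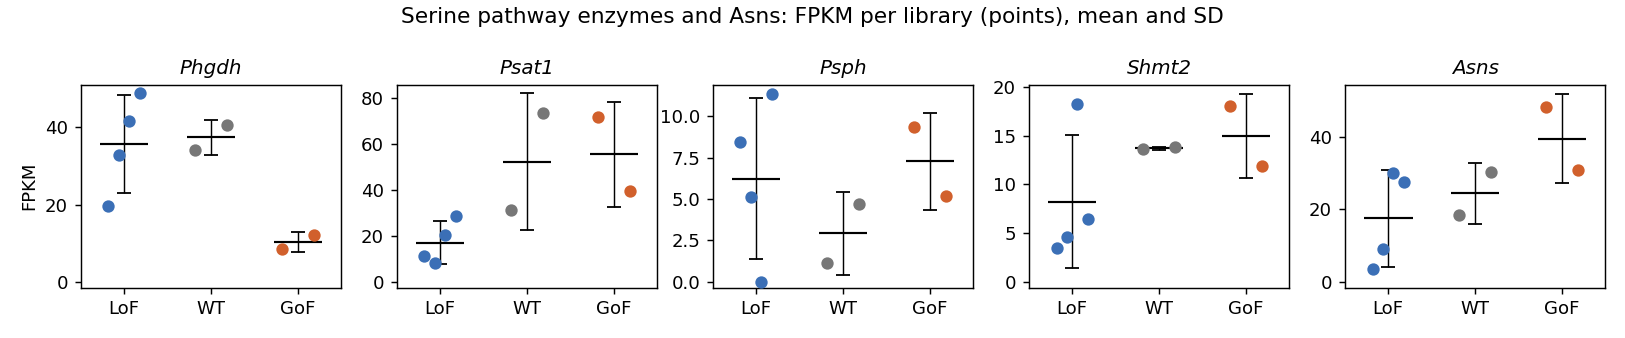
FPKM of the 4 serine pathway enzymes and Asns in each library (points), with the group mean as a line and the SD as a bar, for LoF (n = 4), WT (n = 2) and GoF (n = 2), on linear axes from 0. Phgdh is lowest in GoF (8.39 and 12.2), whereas Psat1 is lowest in LoF (7.99 to 28.6).

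Lists of genes around amino acid supply were read from the same fit, and their counts stand beside the 5.97% of all genes called higher and 5.68% called lower in GoF. Of 21 tested genes of the integrated stress response, the pathway that acts through ATF4, 7 rose by limma and 14 did not pass. None was lower even at an unadjusted p under 0.05, and the median log2 difference was 0.42. Among the 7, Stc2 reached 1 FPKM in GoF alone (2.26 and 1.64), so the filter admitted it through the group in which it was high. Chac1, which degrades glutathione, had mean levels of 0.0911 ± 0.182 FPKM in LoF (SD, n = 4), 1.89 ± 0.878 in WT (SD, n = 2) and 22.9 ± 20.3 in GoF (SD, n = 2), a log2 difference from LoF to GoF of 4.14 ± 0.59 (SE; adjusted p = 0.00186 by limma). The transcription factor Atf3 had means of 12.8, 19.0 and 103 FPKM in LoF, WT and GoF (2.96 ± 0.39, SE; adjusted p = 0.00107, limma). Vldlr, a lipoprotein receptor, and the stress protein gene Nupr1 also rose, by 2.82 ± 0.40 and 2.19 ± 0.40 (SE) on the log2 scale, and Nupr1 was at an adjusted p of 0.0596 without GoF library 1. Ddit3 and Trib3 passed narrowly (adjusted p = 0.0393 and 0.0414, limma) and were lost in 15 and 13 of 18 alternatives, with adjusted p up to 0.202 without GoF library 2 and 0.454 without GoF library 1. Atf4 mRNA had means of 64.6 ± 38.9, 63.6 ± 0.366 and 106 ± 22.1 FPKM, and its log2 difference of 0.87 ± 0.45 (SE) was not past the threshold (adjusted p = 0.27, limma).

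The list of proline and arginine synthesis and use had the highest median of the lists plotted. Of 13 tested genes of proline and arginine metabolism, 4 rose, P4ha3 fell and 8 did not pass, and the median log2 difference was 0.97. P4ha3 reached 1 FPKM in LoF alone, so the filter admitted it through the group in which it was high. P4ha1 and P4ha2, catalytic subunits of collagen prolyl 4-hydroxylase, had log2 fold changes of 4.81 ± 0.27 and 4.69 ± 0.27 (SE; adjusted p = 2.29e-05 and 2.43e-05, limma). P4ha1 had a mean of 15.4 FPKM in LoF, 88.1 in WT and 453 in GoF. Pycr1, which makes proline in the mitochondrion, had means of 9.94 ± 7.22, 34.5 ± 6.99 and 116 ± 17.1 FPKM (3.68 ± 0.57, SE; adjusted p = 0.00301, limma). Odc1, which commits ornithine to polyamines, rose by 1.80 ± 0.33 (SE; adjusted p = 0.00674, limma), and its adjusted p was 0.0813 without GoF library 1 and 0.0699 without GoF library 2. Aldh18a1, the enzyme before Pycr1, had means of 7.26, 12.4 and 14.3 FPKM, with an adjusted p of 0.191 by limma. Of the 13 osteoblast matrix genes, 11 were called higher in GoF, Spp1 was called lower and Runx2 did not pass.

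The other lists held few calls. Mthfd2, the mitochondrial folate enzyme downstream of Shmt2, was the 1 gene of 15 one-carbon genes that passed, with means of 4.45 ± 2.75, 22.8 ± 3.91 and 23.3 ± 2.89 FPKM, a log2 difference of 2.31 ± 0.51 (SE; adjusted p = 0.0173 by limma). Its adjusted p was 0.151 without GoF library 1 and 0.0872 without GoF library 2. Of 11 glutamine, glutamate and aspartate enzymes none passed by limma, and 2 had an unadjusted p under 0.05 (18.2%, against 25.2% of all genes). Glutamine synthetase, Glul, had means of 4.02, 3.18 and 0.554 FPKM (adjusted p = 0.103, limma). Among 11 cysteine and glutathione genes, the cysteine dioxygenase gene Cdo1 rose by 4.99 ± 0.87 (SE) on the log2 scale (adjusted p = 0.00536, limma). Cdo1 was at 0 in LoF library 3, and its adjusted p was 0.056 by limma with a pseudocount of 0.1. Ggt5 and Mat2a fell by 3.53 ± 0.54 and 1.06 ± 0.27 (SE) on the log2 scale. Mat2a lost the call in 12 of 18 alternatives, among them without GoF library 1. Bcat1, which transaminates branched-chain amino acids, was the 1 call of 13 in its list (3.09 ± 0.64, SE; adjusted p = 0.0119, limma), and its adjusted p was 0.1 and 0.0707 without GoF library 1 or 2. Gars and Eprs, the glycyl and the glutamyl-prolyl tRNA synthetases, were the 2 calls among 20 cytosolic synthetases, with log2 fold changes of 2.21 ± 0.31 and 1.29 ± 0.31 (SE). Eprs was at an adjusted p of 0.231 without GoF library 1 and 0.119 without GoF library 2. Sec13 was the 1 call of 30 genes of amino acid sensing by mTORC1 (1.54 ± 0.27, SE; adjusted p = 0.00533, limma; 0.0595 and 0.0524 without GoF library 1 or 2); its product also coats secretory vesicles. None of 12 amino acid transporters of other families passed by limma, and 2 had an unadjusted p under 0.05 (16.7%, against 25.2% of all genes).

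**Figure D5:**
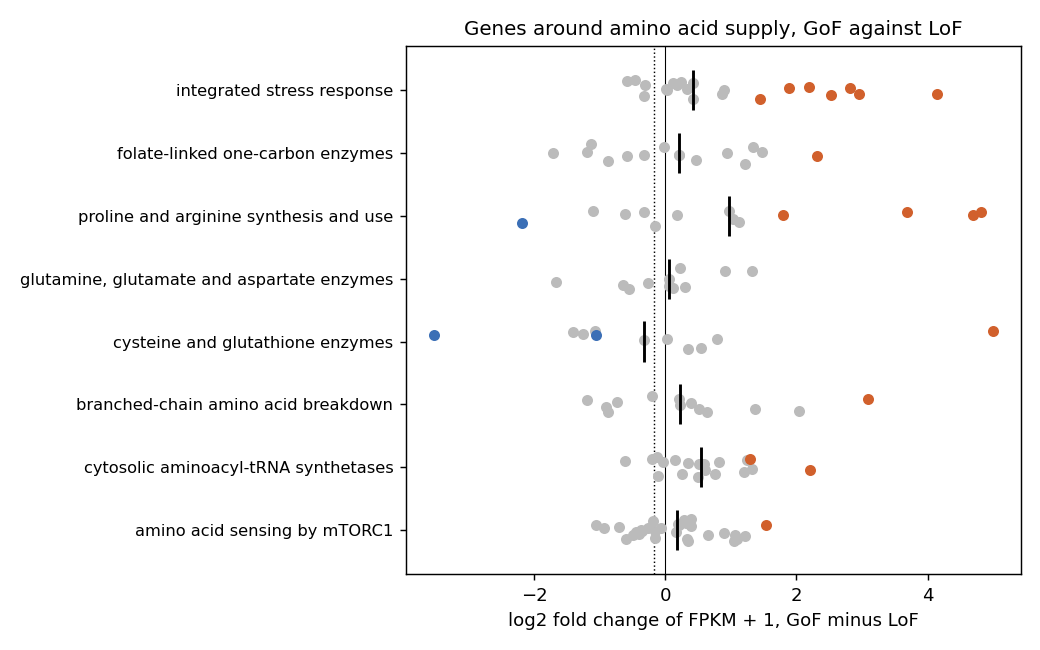
Log2 fold change of FPKM + 1, GoF minus LoF, for the tested genes of 8 lists; each point is a gene, orange if called higher in GoF, blue if called lower and grey if not past the threshold. Black bars are list medians, from -0.32 for cysteine and glutathione enzymes to 0.97 for proline and arginine genes, and the dotted line is the median of all genes tested (-0.17).

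LoF was then compared with WT, which asks what loss of beta-catenin changes. One member fell, Slc36a2, which is 2.56% of the 39 tested against 0.667% of all genes called lower, and by limma none rose (0.566% of all genes). Over all genes, 73 were higher and 86 lower in LoF, and under quantile normalization 80 and 147. At an unadjusted p under 0.05, 2 members were higher in LoF and 7 lower, together 23.1% of those tested against 13.4% of all genes. Its LoF mean of 4.89 ± 4.47 FPKM (SD, n = 4) was 9.56-fold below the WT mean of 46.8 ± 10.4 (SD, n = 2), a log2 fold change of -3.30 ± 0.59 (SE) with an adjusted p of 0.0308 by limma. This call was lost in 11 of 18 alternatives, among them without WT library 1 (adjusted p = 0.178), WT library 2 (0.313), LoF library 2 (0.0747) or LoF library 4 (0.0533). Slc6a6 had the opposite sign, with a log2 fold change of 1.90 ± 0.46 (SE) in LoF, and missed the threshold (adjusted p = 0.0914, limma; 0.0487 without LoF library 3). Psat1 (-1.60 ± 0.53, SE; adjusted p = 0.215, limma) and Slc7a1 (-1.58 ± 0.58, SE; adjusted p = 0.258, limma) did not pass. The median log2 difference was -0.30 over the members and 0.06 over all genes. In 9 members (23.1%) every LoF library lay below both WT libraries, as in 9.88% of all genes, and in 2 (5.13%) every one lay above, as in 11.5%. Slc6a15 entered the test through WT alone, and Slc6a2 through GoF and WT but not LoF. Both are among these 9 and among the 7 lower at an unadjusted p under 0.05. These shares are therefore given as a description.

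The same contrast gave few calls in the related lists. P4ha1 and P4ha2 fell in LoF by 2.46 ± 0.27 and 2.31 ± 0.27 (SE) on the log2 scale (adjusted p = 0.00586 and 0.00657, limma), and Gars and Sec13 fell by 1.75 ± 0.31 and 1.41 ± 0.27 (SE; adjusted p = 0.0301 and 0.0405, limma). Without WT library 2 all 4 lost the call, at adjusted p of 0.1, 0.12, 0.266 and 0.314, and without WT library 1 P4ha2, Gars and Sec13 did, at 0.0565, 0.225 and 0.241. Gars also lost it without LoF library 2 (0.0606) or 4 (0.0529), and Sec13 kept it only when LoF library 4 was the library left out. Mthfd2 (-2.28 ± 0.51, SE; adjusted p = 0.0701, limma) and Pycr1 (-1.95 ± 0.57, SE; adjusted p = 0.153, limma) did not pass. No gene of the integrated stress response, one-carbon, glutamine, cysteine or branched-chain lists was called by limma. At an unadjusted p under 0.05 these lists held 3, 4, 0, 2 and 1 genes. That is 14.3%, 26.7%, 0%, 18.2% and 7.69% of those tested, against 13.4% of all genes.

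GoF was last compared with WT, a contrast that shares its WT libraries with the one before and its GoF libraries with the first. Slc7a7, Slc7a8 and Slc6a11 rose, which is 7.69% of the members tested against 1.41% of all genes, with Slc6a11 again in the test through GoF alone, and by limma none fell (0.900% of all genes). At an unadjusted p under 0.05, 8 members were higher in GoF and 3 lower, together 28.2% of those tested against 14.3% of all genes. In 16 members (41.0%) both GoF libraries lay above both WT libraries, as in 21.8% of all genes, and in 8 (20.5%) both lay below, as in 26.2%. Slc6a11, Slc6a12 and Slc38a3, in the test through GoF alone, are among the 16 and among the 8 higher at the unadjusted threshold. Slc6a15, in the test through WT alone, is among those that lay below. These shares are therefore given as a description. Slc7a7 was 12.8-fold above its WT mean of 5.81 ± 2.28 FPKM (SD, n = 2), with a log2 fold change of 3.49 ± 0.55 (SE) and an adjusted p of 0.0107 by limma. Slc7a8 was 13.1-fold above its WT mean of 1.30 ± 0.325 FPKM (SD, n = 2), with 2.98 ± 0.65 (SE) and an adjusted p of 0.0474 by limma. Slc6a11, at 0 in WT, had an adjusted p of 0.0305 by limma. Leaving out WT library 1 gave adjusted p of 0.12, 0.246 and 0.195 for the 3 genes in that order, and leaving out WT library 2 gave 0.0526, 0.164 and 0.152. Without GoF library 1 Slc7a7 and Slc7a8 were at 0.0771 and 0.307, and without GoF library 2 at 0.0991 and 0.185. Slc7a8 was at 0.0639 without LoF library 1, and Slc7a8 and Slc6a11 were at 0.0694 and 0.0545 without LoF library 2. With sex as a covariate, no member was called in this contrast.

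Phgdh was 3.64-fold lower in GoF than in WT (37.4 ± 4.54 FPKM, SD, n = 2), or -1.78 ± 0.45 (SE) on the log2 scale, and missed the threshold (adjusted p = 0.0764, limma; 0.0413 under median ratio scaling, 0.0354 under quantile normalization). Slc1a5 (2.06 ± 0.56, SE; adjusted p = 0.1, limma), Slc38a3 (1.44 ± 0.42; 0.128), Slc6a12 (adjusted p = 0.0752), Slc7a6 (1.22 ± 0.47; 0.253) and Slc3a2 (0.67 ± 0.34; 0.409) did not pass either. For Slc36a2 the GoF mean was 1.73-fold the WT mean, or 0.80 ± 0.68 on the log2 scale (SE; adjusted p = 0.679, limma). Slc43a3 stood at -1.25 ± 0.51 (SE; adjusted p = 0.29, limma). The median log2 difference was 0.11 over the members and -0.08 over all genes. In the related lists Atf3 (2.42 ± 0.45, SE; adjusted p = 0.0226, limma), P4ha1 (2.35), P4ha2 (2.38) and Odc1 (2.48) rose. Without GoF library 1 these lost the call, at adjusted p of 0.187, 0.0745, 0.0669 and 0.097, and each also lost it without WT library 1. No other gene of the 8 lists plotted was called.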

How the data were processed

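RNA was measured in 8 libraries (LoF 4, GoF 2, WT 2). The deposited table holds 1 FPKM value per gene and library, computed by the authors. The submitters' processing notes name HISAT2, SAMtools 0.1.18, Cufflinks, HTSeq and the mm10 build, with no roles; the annotation release and the use of strand are not given in the sources used here. Without counts, no read depth or counting interval can be printed. Of 48555 lines, 65 repeated ones with identical values were removed, leaving 48490 genes. Deposited starts count from 0 and were raised by 1.

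Genes with at least 1 FPKM in at least 2 libraries (12888) were tested on log2(FPKM + 1) with limma 3.58.1 in R 4.3.3, in 1 fit of all 3 groups with a mean-variance trend, 2-sided, with Benjamini-Hochberg adjustment and a threshold of 0.05. Fold changes on this scale understate those of low genes. Folds in plain numbers are ratios of mean FPKM. The script was tested on simulated data. Groups come from the sample titles. Replicate numbers were not taken to pair libraries.

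Members and lists were chosen with earlier results of these data known. Named with values were members called in any comparison, members chosen by role, members with a group mean of at least 5 FPKM, and up to 4 called genes per related list; some genes of that rule are not reported here. Slc1a1, Slc6a2, Slc7a2, Slc7a3, Slc7a10, Slc36a1, P4ha3, Axin2 and genes that overlap members lie outside that rule and were chosen after their values were seen. Alternative settings, 15 in all, were scaling by median ratios or by quantiles, a pseudocount of 0.1, no filter, no trend, a replicate block, a fit of the compared pair of groups and each library left out. After seeing the data, 3 were added: sex as a covariate and each same-sex pair of LoF libraries left out.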

Additional observations from a re-analysis of the deposited data

Results flagged for a closer look

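In the LoF group, the one group with enough libraries for Dixon's test, 37 of the tested members could be examined on the log2(FPKM + 1) scale. In 4 of them 1 library stood apart from the other 3, by a gap above the test's critical value. These were Slc1a3, a glutamate transporter, at 2.33 FPKM in LoF library 1, Slc6a12 at 0.384 FPKM in LoF library 1, Slc38a5, a glutamine carrier, at 1.26 FPKM in LoF library 2, and Slc7a3 at 3.99 FPKM in LoF library 3. In Slc6a12, Slc38a5 and Slc7a3 the other 3 libraries were at 0, so any value above 0 would stand apart in this way. For values without such a floor, chance gives a gap of this size in about 1 of 20 groups.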

How the results depend on the processing

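Of 37 member results examined under up to 18 alternatives, 13 were calls. Of these, 3 stayed past the threshold in every alternative that tested them: Slc7a7, Slc36a2 and Slc6a11 in GoF against LoF. Slc6a11 entered the test through GoF alone, so its stability is no support. It was tested in 16 of the 18 and fell below the filter when a GoF library was left out. Of 24 results that were not calls, 8 passed under some alternative. Among 31 results of related genes, 26 were calls and 7 of these held throughout. The sign of GoF minus LoF turned in 2 genes that are no calls: with 1 library left out, the log2 value ran from -0.16 to 1.05 for Psph (-0.43 without LoF libraries 2 and 3) and from -0.14 to 0.53 for Slc38a1.

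In GoF against LoF, leaving out 1 library gave 414 to 1400 called genes (1501 with all) and 2 to 12 called members (9 with all). Genes numbered 974 with sex as a covariate, 848 without LoF libraries 2 and 3 (5 members) and 994 without LoF libraries 1 and 4. In LoF against WT (159 genes, 1 member), leaving out 1 library gave 3 to 135 genes and 0 to 2 members. A pseudocount of 0.1 gave 83 genes, no filter 53, no trend 54, sex as a covariate 14, only the 2 groups 0 and leaving out LoF libraries 2 and 3 also 0, each with 0 members; without LoF libraries 1 and 4 there were 81 genes. In GoF against WT (298 genes, 3 members), leaving out 1 library gave 48 to 337 genes and 0 to 3 members. Only the 2 groups gave 0 genes and 0 members, sex as a covariate 11 genes and 0 members, leaving out LoF libraries 2 and 3 gave 186 genes, and leaving out LoF libraries 1 and 4 gave 177 genes and 1 member. A pseudocount of 0.1 gave 1 member and quantile normalization 5. The cause of these changes was not tested, beyond the smaller number of libraries where some were left out.

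With the replicate number as a block the called genes were 727, 1 and 15 and the called members 4, 0 and 0 in the 3 comparisons in that order. Same-numbered libraries deviated together by a correlation of only -0.007 to 0.03, so the numbers gave no sign of pairing. Median ratio scaling moved the all-gene median of GoF minus LoF from -0.17 to -0.05 and that of the members from 0.74 to 0.88.

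With 2 libraries in GoF and in WT, a single library decides many calls, and a left-out one leaves a lone library assumed to vary like the others. FPKM hold no counts, so precision at low levels is unknown. Genes near 1 FPKM depend on the filter and the pseudocount.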
